A study of Homo sapiens with 6 samples.

Results

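The 4 mature arms of miR-221 and miR-222 (hsa-miR-221-3p, hsa-miR-221-5p, hsa-miR-222-3p and hsa-miR-222-5p in the table, written without the prefix from here on) were described in small RNA libraries of MDA-MB-231. This human breast cancer line serves as a model of triple-negative disease, which lacks estrogen receptor, progesterone receptor and HER2. The 4 were picked by name, with no threshold on their values, from the 1582 miRNAs in the table, and all 4 were among the 506 that passed the filter on low counts. Control cells (3 libraries) were non-transfected. RARαS77A cells (3 libraries) overexpressed retinoic acid receptor α with alanine in place of serine 77, a form that cannot be phosphorylated at this residue. The series text names lentivirus for the delivery of the mutant. No library of cells with an empty vector or with wild-type RARα was analysed here, so delivery, overexpression and the mutation cannot be told apart. The question was how the small RNA profile of the line differs when this receptor form is present.

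A miRNA hairpin is cut by Drosha and Dicer into a short duplex, of which one strand, the guide, is usually kept in Argonaute and the other, the passenger, is mostly lost. The guide pairs through its seed, the bases near its 5′ end, with sites in messenger RNAs and lowers their output. miR-221 and miR-222 lie next to each other on the X chromosome and come from one primary transcript. Their guides are the 3p arms, which are best known for repressing CDKN1B (p27, an inhibitor of cyclin-dependent kinases), and both are high in basal-like breast cancer and low in luminal, estrogen receptor-positive tumors.

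The guides share a seed, and this is why they are usually treated as one family. The mature sequences below are RefSeq's for GRCh38.p14, read 5′ to 3′, with the seed (bases 2 to 8) in capitals. An entry was matched for 3 of the 4 arms, all but miR-221-5p.
miR-221-3p: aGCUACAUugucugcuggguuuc
miR-222-3p: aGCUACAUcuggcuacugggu
miR-222-5p: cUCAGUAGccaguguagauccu
The first 8 bases of the 2 guides are identical and the rest differ, so reads of one could be told from reads of the other. No other name among the 2370 mature miRNAs of that table has the seed GCUACAU. The seed of miR-222-5p, UCAGUAG, is found in that arm alone. No other miRNA had counts within 5% of those of a member in every library.

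Both hairpins lie on the minus strand of chromosome X, MIR222 at chrX:45747015-45747124 and MIR221 at chrX:45746157-45746266 (GRCh38). The hairpins (RefSeq, GRCh38.p14) are shown to place the arms, with the mature sequences above in capitals.
MIR222: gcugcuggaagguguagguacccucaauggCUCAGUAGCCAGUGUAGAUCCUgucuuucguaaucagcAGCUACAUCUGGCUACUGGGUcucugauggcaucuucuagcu
MIR221: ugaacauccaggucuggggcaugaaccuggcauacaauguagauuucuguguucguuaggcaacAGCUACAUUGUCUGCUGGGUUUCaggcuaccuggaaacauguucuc
In GENCODE 29 both fall inside the single intron of transcript MIR222HG-201, whose gene, the long non-coding RNA MIR222HG, spans chrX:45745211-45770274. MIR222 comes first in the direction of transcription, 748 bases before MIR221, and MIR221 ends 56 bases before the second exon.

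The 300 bases around the start of MIR222HG (chrX:45770218-45770517, minus strand, GRCh38.p14, RefSeq) are given because both hairpins are transcribed from this gene. Matches to TATAA and to ATTGG, the reverse complement of the CCAAT box, are in capitals.
MIR222HG: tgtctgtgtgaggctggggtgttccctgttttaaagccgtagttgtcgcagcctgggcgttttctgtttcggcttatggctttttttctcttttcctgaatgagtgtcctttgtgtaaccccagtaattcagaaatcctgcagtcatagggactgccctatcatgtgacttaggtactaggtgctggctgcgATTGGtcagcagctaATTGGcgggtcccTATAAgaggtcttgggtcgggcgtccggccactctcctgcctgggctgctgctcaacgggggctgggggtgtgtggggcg
Searched on both strands over all promoters of this length, CCAAT occurs in 34.6% and TATAA in 20.4%. The half-site of retinoic acid receptors was searched as AGGTCA and as the related hexamers AGTTCA or GGGTCA or else GGTTCA, of which at least one occurs in 38.6% of promoters and none in this window. The AP-1 letters TGAGTCA and TGACTCA occur in 4.95% of promoters and are not in this window either.

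The known target site of the guides is the complement of the seed, ATGTAGC in DNA letters. The longest annotated 3′ UTR of CDKN1B (GENCODE 29, transcript ENST00000228872.8) has 1344 bases and holds this match at 2 places, each followed by an A. They are shown on the plus strand of chromosome 12 (GRCh38) with the seed match in capitals, the first at chr12:12721219-12721240 and the second at chr12:12721292-12721313.
CDKN1B site 1: aagcgttggATGTAGCattatg
CDKN1B site 2: ttaccttttATGTAGCacataa
Over the first 1344 bases of the 8375 gene 3′ UTRs that are at least this long, 6.46% hold a match and 0.287% hold 2 or more. Messenger RNA was not measured in these libraries, so nothing here bears on the level of CDKN1B.

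The libraries held between 9019266 and 11338580 counts. Counts are relative, and TMM scaling, which assumes that most miRNAs do not change, gave factors that averaged 1.22 in control but 0.820 in RARαS77A libraries. Levels are given as CPM, the reads of a miRNA per 1e+06 reads of its library. Unless total counts are named, the library size was first multiplied by its TMM factor. In these bulk libraries, fewer cells with a miRNA and less of it per cell cannot be told apart. Control replicate 3 stood apart from the other controls. The summed level of 8 miRNAs typical of pluripotent stem cells was 0.185 and 0.0882 CPM (total counts) in control replicates 1 and 2, where 6 of the 8 had no count, but 422 in control replicate 3 and between 278 and 288 in the RARαS77A libraries. Log2 fold changes without control replicate 3 are therefore given beside the results below. Leaving it out removes the only control with this signal, so those fits cannot separate the signal from the group. With a batch term that leaves control replicate 3 as the only control beside the RARαS77A libraries, log2 fold changes were -0.39 for miR-221-3p and 0.31 for miR-222-3p. The part of these miRNAs in the results was not tested. The summed level of 4 muscle miRNAs was 91.5 CPM in control replicate 1 and between 2.65 and 5.10 in the other libraries (total counts). The sums of 8 epithelial or luminal miRNAs lay lower in RARαS77A libraries by total counts (141 to 199 CPM in control against 95.9 to 104) but overlapped after TMM scaling (116 to 153 against 118 to 127). There miR-200b-3p was called higher (log2 fold change 0.49, adjusted p = 0.0241, edgeR). None of the others tested was called, and most were lower: miR-203a-3p (-2.30), miR-375-3p (-1.91), miR-190b-5p (-0.76), miR-200a-3p (-0.35) and miR-429 (-0.02). Only miR-200c-3p (0.24) was higher among them. The sums of 6 blood miRNAs also overlapped (25.5 to 33.2 CPM after TMM scaling in control against 26.6 to 37.9), as did the liver miRNA miR-122-5p (6.73 to 44.1 against 42.3 to 63.5). The list of 6 miRNAs of basal or mesenchymal cells includes both guides, and its sum (at least 624847 CPM by total counts in every library) is mostly miR-21-5p and miR-100-5p, at means of 505226 and 155608 CPM after TMM scaling, so it says little on the other members. miR-155-5p of that list was too low to be tested. Whether the 3 libraries of a group were separate cultures is not stated, so p-values measure the spread between these libraries, which may be technical.

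In both groups the guides were among the miRNAs with the most reads, and which of them had more reads differed between the groups. miR-221-3p had 119063, 144030 and 114288 counts in control replicates 1 to 3 and ranked between 11 and 13 of all miRNAs. In RARαS77A replicates 1 to 3 it had 53052, 78704 and 64415 counts and ranked between 18 and 20. All 3 RARαS77A counts lay below all 3 control counts.

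After TMM scaling, miR-221-3p had 9549, 9790 and 10441 CPM in control and 6747, 9372 and 7754 CPM in RARαS77A libraries. The RARαS77A libraries were again all lower, but replicate 2 came close to the lowest control. Control averaged 9927 ± 462 and RARαS77A 7958 ± 1324 CPM (SD, n = 3 each). The fold change on the log2 scale was -0.32 (standard error 0.13, 95% interval -0.63 to -0.01). With edgeR's quasi-likelihood test and Benjamini-Hochberg adjustment over the 506 miRNAs the adjusted p was 0.0847, above the limit of 0.05. Without control replicate 3 the log2 fold change was -0.34 (adjusted p = 0.0491, edgeR), and without RARαS77A replicate 2 it was -0.43 (adjusted p = 0.0179, edgeR). Leaving out any other single library kept the adjusted p above the limit, the highest being 0.115 (-0.28) without RARαS77A replicate 1 (edgeR).

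miR-222-3p did not follow it. It had 107432, 104789 and 94082 counts in control and 72598, 104771 and 84935 counts in RARαS77A libraries. In CPM after TMM scaling these were 8616, 7123 and 8595 in control against 9233, 12475 and 10224 in RARαS77A libraries, so that here the RARαS77A libraries were all higher. Control averaged 8111 ± 856 and RARαS77A 10644 ± 1661 CPM (SD, n = 3 each). On the log2 scale this was a fold change of 0.39 (standard error 0.14, 95% interval 0.06 to 0.72), with an adjusted p of 0.0540 (edgeR's quasi-likelihood test), just above the limit. Without control replicate 1 or 3 the adjusted p was 0.0265 (log2 fold change 0.43) or 0.0407 (0.38), respectively (edgeR). With any other single library left out it stayed above the limit, and was highest, 0.130 (0.28), without RARαS77A replicate 2 (edgeR).

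The passenger arms were less abundant and differed widely in level. After TMM scaling, miR-221-5p had 949, 559 and 822 CPM in control and 695, 926 and 850 CPM in RARαS77A libraries. The groups overlapped, the spread being widest among the controls. The difference on the log2 scale was 0.09 (95% interval -0.38 to 0.55, standard error 0.20), which did not pass the test (edgeR, adjusted p = 0.735). Its interval allows a difference in either direction, and without control replicate 2, the lowest control, it was -0.09 (0.07 without control replicate 3).

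miR-222-5p was the only member whose difference passed the limit, and it is also the one with the fewest reads. It had 131, 167 and 98 counts in control and 51, 55 and 58 counts in RARαS77A libraries, or 10.5, 11.4 and 8.95 CPM against 6.49, 6.55 and 6.98 CPM after TMM scaling. The groups did not overlap and the RARαS77A libraries lay close together. Control averaged 10.3 ± 1.22 and RARαS77A 6.67 ± 0.270 CPM (SD, n = 3 each). miR-222-5p thus fell by 0.62 on the log2 scale (SE 0.17), and edgeR gave an adjusted p of 0.0208. The call was lost without control replicate 1 (-0.62, adjusted p = 0.0636), control replicate 2 (-0.52, adjusted p = 0.0789) or RARαS77A replicate 2 (-0.59, adjusted p = 0.0718, edgeR in each), and kept without control replicate 3 (-0.77, adjusted p = 0.0236, edgeR).

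Of the 4 members, 1 was called lower and 0 higher by edgeR, while 3 had an unadjusted p under 0.05. Over all 506 miRNAs tested, edgeR called 21.1% lower and 23.3% higher, or 44.5% in either direction. The share of the members called lower is near that background. With only 4 members, all of 1 transcript, the smaller shares called higher or in either direction cannot be told from it. RARαS77A libraries were all lower in 2 members and all higher in 1, against 27.1% and 31.0% of all tested miRNAs and 58.1% in either direction. The exact permutation test over libraries gave a two-sided p of 0.1 for each of these 3 members, the smallest that 3 against 3 allow, and 0.7 for miR-221-5p. The log2 fold changes of the members also lay inside the bulk of the table, whose 10th and 90th percentiles were -1.22 and 1.25.

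**Figure D1:**
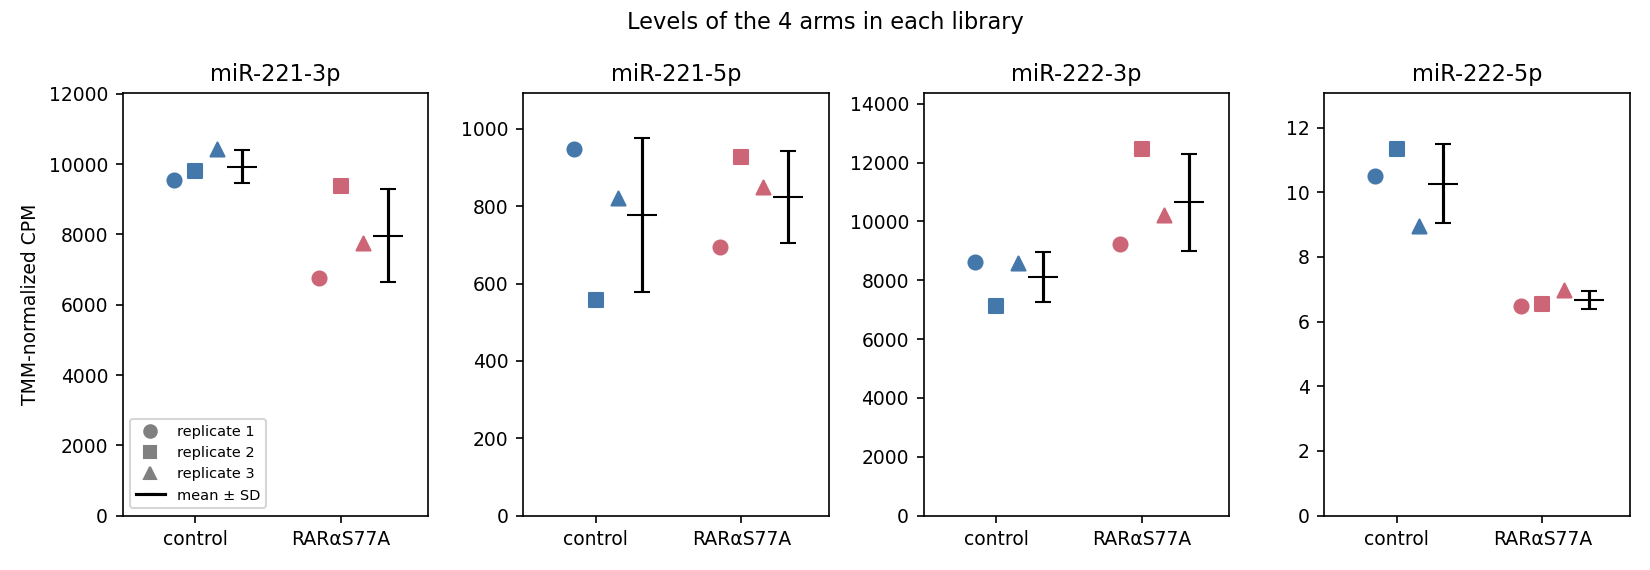
TMM-normalized CPM of each arm in each library (vertical axis, from 0, scaled to each arm), with points for libraries and black bars for mean ± SD of 3 libraries. RARαS77A libraries lie below control for miR-221-3p and miR-222-5p, above control for miR-222-3p, and among the controls for miR-221-5p.

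The direction of miR-222-3p and miR-221-5p depended on the scaling. The distances between members hardly could, as a scaling multiplies all counts of a library by the same factor. With total counts only, miR-221-3p was at -0.90 (adjusted p = 0.00171, edgeR) and miR-222-3p at -0.18 (adjusted p = 0.278, edgeR), and miR-221-3p then fell from 1.21% ± 0.0963 to 0.652% ± 0.110 of all counts (SD, n = 3 each). That scaling called 42.1% of all tested miRNAs lower and 10.1% higher, and by total counts 48.8% were lower in all RARαS77A libraries. miR-222-3p made up 0.987% ± 0.0598 of the counts in control and 0.872% ± 0.137 in RARαS77A libraries, and these overlapped. With upper quartile scaling, miR-221-3p was at -0.12 (adjusted p = 0.475, edgeR), while miR-222-3p was called higher at 0.60 (adjusted p = 0.00521, edgeR), where 27.9% of all tested miRNAs were called higher and 14.6% lower. Over all 506 miRNAs the median moved with the scaling as well, from 0.06 with TMM to -0.51 with total counts and 0.27 with upper quartile. Taken relative to that median, miR-221-3p was at -0.38, -0.39 and -0.39 under the 3 scalings, miR-222-3p at 0.33 under each, miR-221-5p at 0.02, 0.03 and 0.03, and miR-222-5p at -0.69, -0.69 and -0.68. Members and median shift by nearly the same amount under any such scaling, so this stability is fixed in advance and tests nothing.

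**Figure D2:**
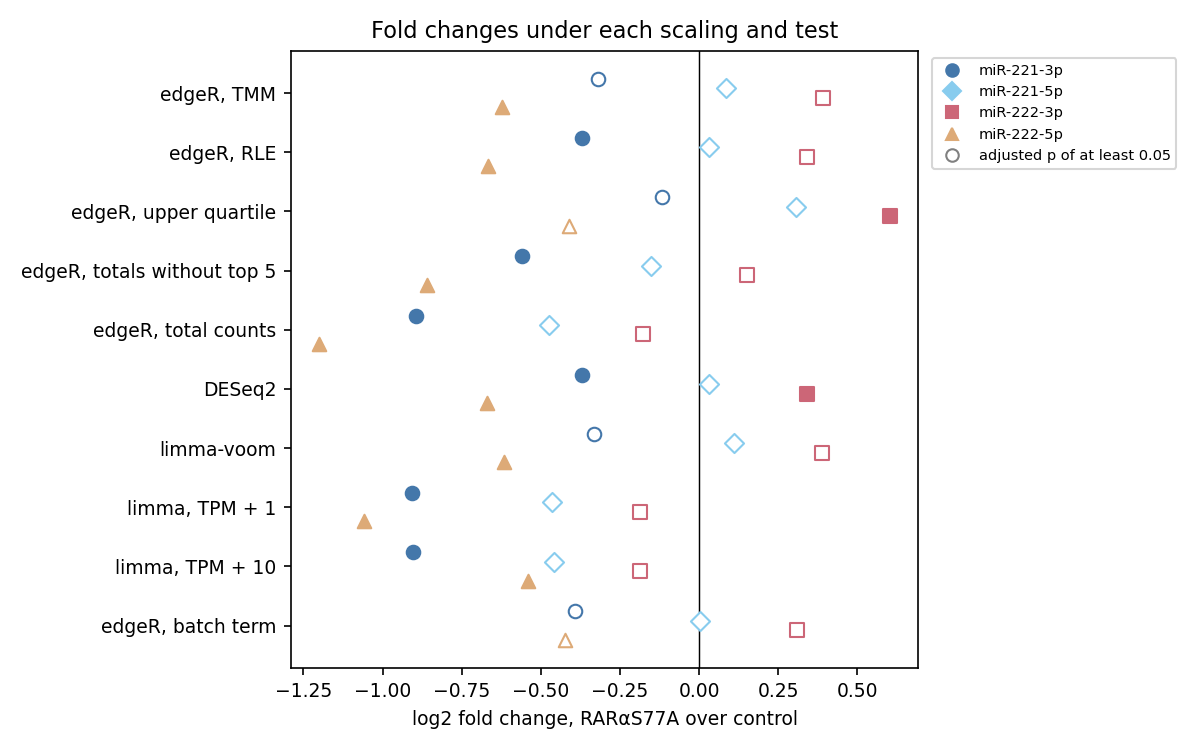
Log2 fold change of each arm (horizontal axis, RARαS77A over control) under 10 combinations of scaling, test and batch term (rows), where filled symbols have an adjusted p under 0.05. The 4 symbols shift together from row to row under edgeR's scalings, with miR-222-3p farthest right in every row and miR-222-5p farthest left in all but limma on TPM plus 10, where miR-221-3p is at -0.90 and miR-222-5p at -0.54.

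Ratios of counts within a library do not depend on scaling. In control replicates 1 to 3, miR-221-3p had 1.11, 1.37 and 1.21 reads for each read of miR-222-3p. In RARαS77A replicates 1 to 3 it had 0.731, 0.751 and 0.758. Every control library thus had more reads of miR-221-3p than of miR-222-3p, and every RARαS77A library had fewer. The ratio of the molecules themselves was not measured. The share of miR-221-3p in the reads of both guides went from 55.1% ± 2.67 to 42.7% ± 0.472 (SD, n = 3 each).

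The log2 ratio of the guides differed by -0.72 between the groups (standard error 0.09 from the spread of the libraries), which is a ratio 1.64 times lower in RARαS77A cells. The nearest libraries of the groups, control replicate 1 and RARαS77A replicate 3, were 0.55 apart on the log2 scale, against an SD of 0.16 within control and 0.03 within RARαS77A libraries. The exact permutation test gave p = 0.1 (two-sided), the smallest possible here. Control replicate 3 by itself had a ratio of 1.21, near the middle of the controls, and without it or any other single library the difference stayed between -0.79 and -0.64. Among all 127765 pairs of tested miRNAs, 55.6% had ratios that did not overlap between the groups and 61.2% differed by at least as much, so a shift of this size between 2 miRNAs was common in these libraries.

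After TMM scaling the total of the shared seed did not differ beyond the spread. Added together, miR-221-3p and miR-222-3p had 18164, 16914 and 19036 CPM in control and 15981, 21847 and 17979 CPM in RARαS77A libraries. The groups overlapped, with means of 18038 ± 1067 and 18602 ± 2982 CPM (SD, n = 3 each), and the difference of 0.03 on the log2 scale was within the spread (standard error 0.14; exact permutation test, two-sided, p = 0.9), as it was without control replicate 3 (0.07). As a share of all counts the pair made up between 2.10% and 2.31% in control and at most 1.79% in RARαS77A libraries, which do not overlap, so here too the direction rests on the scaling.

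The ratio of the passenger strands moved the other way. In control replicates 1 to 3, there were 90.3, 49.2 and 91.8 reads of miR-221-5p for each read of miR-222-5p. In RARαS77A replicates 1 to 3 there were 107, 141 and 122. The RARαS77A libraries were all higher, by 0.72 on the log2 scale (standard error 0.32; exact permutation test, two-sided, p = 0.1). Without control replicate 2, the lowest, the difference was 0.42 (exact permutation test, p = 0.2), and without control replicate 3 it was 0.87.

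**Figure D3:**
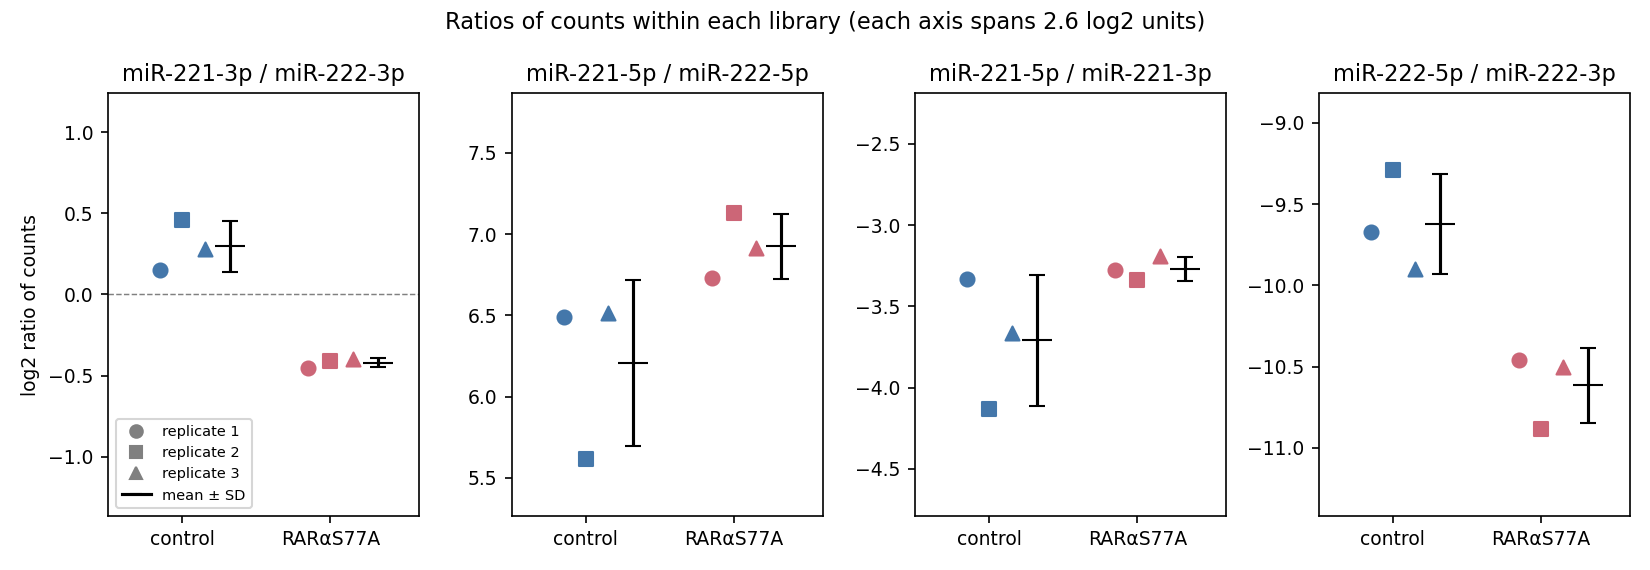
Log2 ratios of counts within each library (vertical axes, each spanning 2.6 log2 units), with points for libraries and black bars for mean ± SD of 3 libraries. The ratio of the guides changes from above 0 (dashed line) in all 3 control libraries to below 0 in all 3 RARαS77A libraries, and the arm ratio of miR-222 falls while that of miR-221 overlaps.

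Within a hairpin, the arm ratio tells how the reads are divided between passenger and guide. For miR-222, 0.122%, 0.159% and 0.104% of the reads of both arms were 5p in control replicates 1 to 3, and 0.0702%, 0.0525% and 0.0682% in RARαS77A replicates 1 to 3. The groups did not overlap. As the 5p counts are low, the counting error is wide: the 95% Wilson interval of the lowest control was 0.0854% to 0.127%, and that of the highest RARαS77A library 0.0534% to 0.0923%, so these 2 intervals overlap. The mean log2 ratio of 5p to 3p fell by 0.99 (standard error 0.22), or 1.99-fold, with an adjusted p of 0.0470 over 120 hairpins (edgeR's diffSpliceDGE, arm-level test). At this limit 30.0% of the hairpins were called in either direction and 10.8% with a lower 5p arm, while the groups did not overlap in 59.2% and were lower in 25.0%. The hairpin-level test of the same tool, which called 57.5% of the hairpins, gave an adjusted p of 0.00109. In size the change of miR-222 ranked 47th of the 120. The call is close to the limit. It was lost without RARαS77A replicate 1, 2 or 3 (adjusted p of 0.148, 0.249 and 0.150, edgeR), although the change itself stayed at -1.07, -0.86 and -1.05, whereas without control replicate 3 it was kept (-1.13, adjusted p = 0.0119, edgeR). With a batch term that leaves control replicate 3 as the only control beside the RARαS77A libraries, the change was -0.73 (adjusted p = 0.312, edgeR). In the same fit miR-222-5p was at -0.42 (adjusted p = 0.277, edgeR) and 25.9% of all miRNAs were called.

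For miR-221, 9.04%, 5.40% and 7.30% of the reads of both arms were 5p in control replicates 1 to 3, and 9.34%, 8.996% and 9.88% in RARαS77A replicates 1 to 3. Control replicate 1 lay inside the range of the RARαS77A libraries. The log2 ratio of 5p to 3p was higher by 0.44 (standard error 0.24), with an adjusted p of 0.378 (edgeR's diffSpliceDGE), by 0.23 without control replicate 2, and by 0.46 without control replicate 3. The counting error is small for this hairpin, with a 95% Wilson interval of 5.29% to 5.51% for control replicate 2, so the spread among controls exceeds it. Intervals cover counting error only.

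The hairpins stand at different places among those with both arms tested. Ordered by the mean 5p share, miR-222 came first of 120, with the lowest share of all (mean 0.0960% over 6 libraries). Next came miR-23a, miR-29a and miR-148a, whose changes in the log2 ratio of 5p to 3p were 0.71, 0.63 and -0.16. None of them was called by the arm-level test. The hairpin-level test of diffSpliceDGE called miR-23a (adjusted p = 0.0369) and miR-29a (adjusted p = 0.0296) but not miR-148a (adjusted p = 0.717). The next in order, miR-27b and miR-25 (named after their values were seen), were called with larger decreases of the 5p arm than miR-222, at -2.04 (adjusted p = 0.000949, edgeR) and -2.82 (adjusted p = 4.49e-05, edgeR). miR-221 was the 24th, with a mean share of 8.33%.

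**Figure D4:**
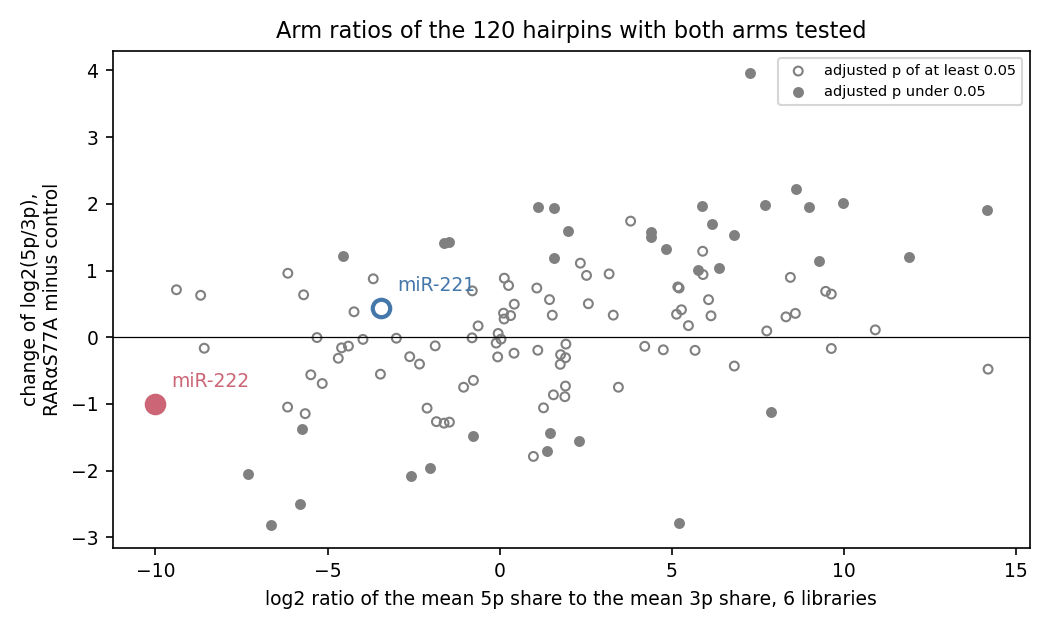
Change of the log2 ratio of 5p to 3p between groups (vertical axis) against the log2 ratio of the mean arm shares (horizontal axis) for the 120 hairpins with both arms tested, filled where the adjusted p is under 0.05. miR-222 lies at the far left with a change of -0.99, and miR-221 at 0.44 is not called.

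The miRNAs whose levels ran most like those of the guides over the 6 libraries differed between the guides, by Pearson's r of log2 CPM over the 309 miRNAs whose mean count was 50 or more. For miR-221-3p they were miR-423-3p, miR-3184-5p and miR-18a-5p (r of 0.971, 0.971 and 0.956), with log2 fold changes of -0.33, -0.33 and -0.38, none called. miR-423-3p and miR-3184-5p come from opposite strands of one locus and had near-equal levels. For miR-222-3p they were miR-1843, let-7i-5p and miR-330-3p (r of 0.951, 0.944 and 0.933), of which miR-1843 was called higher (log2 fold change 0.96, adjusted p = 0.0304, edgeR). The guides correlated with each other at -0.25. All these points share libraries and scaling factors and are given as a description.

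Of 5 other miRNAs reported to target CDKN1B, 4 were tested, 2 of them called higher and 2 lower, where 23.3% of the 506 were called higher and 21.1% lower. Their median was 0.19 on the log2 scale against 0.06 for the 506. With total counts 1 was called higher and 2 lower, against 10.1% and 42.1% of the 506. miR-148a-3p, a regulator of DNA methyltransferase and HLA-G messages, rose from 785 ± 195 to 2651 ± 178 CPM (SD, n = 3 each; log2 fold change 1.76, adjusted p = 0.000269, edgeR). miR-24-3p, a guide of the miR-23/27/24 clusters whose counts in this table cannot be separated from those of the antisense miR-3074-5p, rose from 6521 ± 716 to 11573 ± 1282 CPM (0.83, adjusted p = 0.00171, edgeR), though not with total counts (0.24, adjusted p = 0.190, edgeR). miR-181a-5p, known for tuning T cell signaling, fell from 2237 ± 256 to 1649 ± 155 CPM (-0.44, adjusted p = 0.0176, edgeR), and miR-455-3p from 99.8 ± 13.3 to 56.3 ± 9.89 CPM (-0.83, adjusted p = 0.00854, edgeR). miR-196a-5p was under 1 CPM in both groups and was not tested.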

How the data were processed

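The table the authors deposited holds, for each of 1582 miRNAs and each of the 6 libraries, a read count and a TPM. The authors gave the count as raw whole reads, without scaling. The TPM they deposited equals 1e+06 times the count over its column total, within 4.74e-05, and so has no length term. Per the labels, Bowtie was used, with its version, build and settings not given in the sources used here. Libraries were made with a NEBNext small RNA kit from total RNA and sequenced on an Illumina HiSeq instrument.

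Counts were tested with edgeR 4.0.16 in R 4.3.3 (TMM, filterByExpr with a minimum count of 10, glmQLFit and glmQLFTest, no block or batch term, two-sided, adjusted p under 0.05 over 506 miRNAs). Standard errors were derived from the F statistic. Arm ratios used diffSpliceDGE on the same fit over 120 hairpins, with the p of the less abundant arm, and 0.5 was added to counts in ratios. That arm was chosen after both p-values had been seen, because the test compares an arm with the whole hairpin. Single values used exact permutation tests over libraries. Wilson intervals are from scipy 1.17.1. The tests were also run on simulated independent counts with set changes. That simulation held no control library that stood apart, so it does not cover control replicate 3. Alternatives used other scalings and filters, DESeq2 1.42.0, limma 3.58.1, each library left out, a replicate block and a batch term for control replicate 3.

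The members, lists and tests were chosen with earlier results of these data known. Named miRNAs are the members, at most the 4 most abundant of each list, for each guide the 3 miRNAs with the highest correlation over libraries, and the 3 hairpins next to a member in the order of 5p share. miR-196a-5p, miR-155-5p, miR-27b, miR-25, the tested epithelial or luminal markers and the markers miR-21-5p and miR-100-5p were named after their values were seen. Same-numbered libraries deviated from their group means with correlations of 0.0305, 0.105 and 0.0138, not all over 0.1, and were treated as unpaired. Such correlations cannot exclude that same-numbered libraries were processed together, which the labels do not state.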

Additional observations from a re-analysis of the deposited data

How the results depend on the processing

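Total-count settings (edgeR with total counts, limma on log2 of TPM plus 1 and plus 10) gave log2 fold changes of -0.90, -0.91 and -0.90 for miR-221-3p, now called lower, -0.48, -0.46 and -0.46 for miR-221-5p and -0.18, -0.19 and -0.19 for miR-222-3p, both with the sign reversed and no call. miR-222-5p stayed called, at -1.20, -1.06 and -0.54. With totals that leave out the 5 most abundant, miR-221-3p was called at -0.56 and miR-221-5p was at -0.15. miR-221-3p was also called with RLE scaling (-0.37), DESeq2 (-0.37), no filter (-0.51) and a mean count of at least 50 (-0.35). miR-222-3p was called higher with upper quartile scaling (0.60), DESeq2 (0.34) and a mean count of at least 50 (0.37). miR-221-5p was at -0.11 with no filter. miR-222-5p lost its call with upper quartile scaling (-0.41) and the batch term (-0.42). The arm ratio of miR-222 lost its call with the batch term (-0.73) and no filter (-1.003), and kept it with diffSplice of limma (-1.002, adjusted p = 0.00367) and the hairpin-level test of diffSpliceDGE (-1.01, adjusted p = 0.00109, chosen after seeing the data). The summed guides reversed with total counts (-0.54), RLE (-0.011) and totals without the 5 most abundant (-0.20). Causes were not tested.

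With the replicate block, miR-222-5p (-0.62, adjusted p = 0.0616, edgeR) and the arm ratio of miR-222 (-1.002, adjusted p = 0.0529, edgeR) lost their calls, and no other member changed its call. Whether the numbers pair the libraries is not known.

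With each library left out, log2 fold changes lay between -0.43 and -0.28 for miR-221-3p, -0.087 (without control replicate 2) and 0.26 for miR-221-5p, 0.28 and 0.43 for miR-222-3p, and -0.77 and -0.52 for miR-222-5p. Arm ratios lay between 0.23 and 0.63 for miR-221 and between -1.13 and -0.83 for miR-222. The ratio of the guides lay between -0.79 and -0.64, that of the passengers between 0.42 and 0.87, and the summed guides between -0.088 and 0.14.

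Over all miRNAs, the 118 called higher and 107 called lower became 51 and 213 with total counts, 59 and 218 with limma on TPM plus 10 (55 higher with TPM plus 1), and 76 and 55 with the batch term. With no filter 162 were lower. The low counts of miR-222-5p limit its values.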

Other observations

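Another miRNA cluster of the short arm of the X chromosome was also followed. The intron cluster of CLCN5 at Xp11 encodes 8 hairpins, and 15 of its 16 arms are in the table and 12 were tested. Of these, 2 were called higher, 1 lower and 9 neither, with a median of -0.18 on the log2 scale, against 0.06 for the 506 tested, of which 23.3% were called higher and 21.1% lower. miR-532-5p, its most abundant arm, rose from 381 ± 43.1 to 825 ± 51.6 CPM (SD, n = 3 each; log2 fold change 1.12, adjusted p = 0.000249, edgeR). miR-500a-5p rose from 20.2 ± 1.53 to 35.2 ± 6.54 CPM (0.80, adjusted p = 0.0111, edgeR), though not with total counts (0.23, adjusted p = 0.347, edgeR), and its paralogs in the cluster are close in sequence, so its counts are uncertain. miR-660-5p fell from 115 ± 9.38 to 49.7 ± 9.05 CPM (-1.22, adjusted p = 0.00123, edgeR). miR-362-5p, at 40.3 ± 2.32 and 33.2 ± 1.64 CPM, was not called (-0.28, adjusted p = 0.152, edgeR), but was called lower with total counts (-0.85, adjusted p = 0.00354, edgeR). With total counts only, 1 arm of the cluster was called higher and 6 of 12 lower, where 10.1% and 42.1% of the 506 were.

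Of 5 other miRNAs reported high in basal-like breast cancer, 4 were tested and 1 was called, against 44.5% of the 506. miR-9-5p rose from 127 ± 19.7 to 258 ± 35.01 CPM (SD, n = 3 each; log2 fold change 1.02, adjusted p = 0.00171, edgeR), though not with total counts (0.43, adjusted p = 0.0704, edgeR). miR-146a-5p had 11762 ± 2419 CPM in control and 9692 ± 703 in RARαS77A cells (-0.28, adjusted p = 0.173, edgeR), and miR-18a-5p was at -0.38 (adjusted p = 0.104, edgeR), while miR-135b-5p was at 0.83 (adjusted p = 0.117, edgeR). With total counts, 2 of the 4 were called lower, against 42.1%.

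The direction of the less abundant arm was also counted over all hairpins. In 82 of the 120 hairpins the log2 ratio of the less to the more abundant arm was lower in RARαS77A cells, and in 38 it was higher. Among the 36 called hairpins the numbers were 28 and 8. The median change over all 120 was -0.36, against -0.99 for miR-222 and 0.44 for miR-221. Where the less abundant arm was under 1% of the reads, as for miR-222, it was lower in 20 of 26 hairpins with a median of -0.79, and in 12 of the 13 called with a median of -1.96. miR-423 and miR-3184, from opposite strands of the same locus with near-equal levels, were both counted, among the called hairpins and those that were higher. The hairpins are thus not all separate. They also share libraries, and this is a description.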
